A study of Drosophila melanogaster with 14 samples.

Results

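The genes upd1, upd2 and upd3 encode the 3 Unpaired cytokines of Drosophila melanogaster and lie next to each other on the X chromosome. Nucleosome-free ATAC-seq peaks of 14 wing disc libraries were merged wherever they overlapped or touched, which gave 33226 regions. The 44 regions between 10 kb before the first and 10 kb after the last of the 3 genes were taken as the Unpaired locus. In the dm6 build this span of 88.6 kb runs from 18230654 to 18319291 on X, and its regions are named m1 to m44 in order of position. The nearest region outside the span on the left lay 3684 bp away and was listed in 1 library, and the nearest on the right lay 666 bp away and was listed in 14.

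ATAC-seq uses a transposase that cuts and tags accessible DNA. Short fragments come from open DNA between nucleosomes, and longer, mononucleosome fragments span a nucleosome. The wing imaginal disc is a larval epithelium that develops into the wing of the adult fly. The labels describe regenerating discs of the third instar, of a genotype in which apoptosis was induced, collected 0, 15 and 25 h later. They describe control discs of a second genotype, kept under the same conditions without induced cell death, at 0, 15 and 25 h, and a separate set of undamaged discs of the third instar named L3. The 14 libraries made 7 groups of 2, with 10 discs for each genotype and condition. The labels name neither the driver nor the death-inducing transgene, so the effects of damage and of genotype cannot be told apart.

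Unpaired proteins are secreted ligands of the JAK/STAT pathway. They bind the receptor Domeless, the kinase Hopscotch then phosphorylates Stat92E, and Stat92E enters the nucleus and activates targets such as Socs36E, which encodes an inhibitor of the pathway. upd1 is the ligand best known from embryonic segmentation and from patterning of the discs. upd2 and upd3 are induced in damaged, infected or stressed tissue, where JAK/STAT signalling supports proliferation and survival, and upd2 is also known as a nutrient signal of the fat body.

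The sequences that carry the comparisons are those of the regions listed in 1 arm and not in the other at some time, and those of the regions at the starts of the 3 genes. Each is the plus strand of dm6 with exon bases left out, and runs over at most 300 bases around the strongest summit. Capitals mark matches, on either strand, to GAGAG (bound by GAGA factor, which opens promoters), GGAATG (Scalloped, the DNA-binding partner of Vestigial and Yorkie) and CAGGTA (Zelda, an early activator of the embryonic genome).
m1, chrX:18239407-18239581: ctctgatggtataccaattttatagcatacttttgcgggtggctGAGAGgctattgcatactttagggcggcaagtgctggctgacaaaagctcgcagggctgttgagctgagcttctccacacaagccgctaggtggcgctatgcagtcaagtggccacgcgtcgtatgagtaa
m8, chrX:18252040-18252280: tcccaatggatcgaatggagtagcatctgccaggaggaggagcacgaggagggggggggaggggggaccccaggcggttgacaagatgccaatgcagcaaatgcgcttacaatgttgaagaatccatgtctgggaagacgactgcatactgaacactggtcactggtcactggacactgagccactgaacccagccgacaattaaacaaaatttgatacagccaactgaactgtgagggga
m14, chrX:18261968-18262144: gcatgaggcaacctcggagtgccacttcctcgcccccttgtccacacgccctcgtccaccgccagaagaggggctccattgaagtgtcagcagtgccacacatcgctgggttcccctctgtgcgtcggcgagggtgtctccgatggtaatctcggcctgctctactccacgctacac
m15, chrX:18262598-18262834: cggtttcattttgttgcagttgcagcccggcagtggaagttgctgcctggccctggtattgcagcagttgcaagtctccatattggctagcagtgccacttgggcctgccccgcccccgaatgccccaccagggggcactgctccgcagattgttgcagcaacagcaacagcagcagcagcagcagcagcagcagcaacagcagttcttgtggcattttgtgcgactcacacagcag
m23, chrX:18272108-18272407: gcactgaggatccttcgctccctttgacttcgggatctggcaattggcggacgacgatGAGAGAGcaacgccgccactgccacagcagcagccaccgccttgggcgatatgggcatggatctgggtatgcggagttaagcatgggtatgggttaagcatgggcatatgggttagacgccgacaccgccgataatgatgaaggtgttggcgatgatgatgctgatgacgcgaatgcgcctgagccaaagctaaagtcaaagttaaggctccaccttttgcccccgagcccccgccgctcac
m26, chrX:18276903-18277049: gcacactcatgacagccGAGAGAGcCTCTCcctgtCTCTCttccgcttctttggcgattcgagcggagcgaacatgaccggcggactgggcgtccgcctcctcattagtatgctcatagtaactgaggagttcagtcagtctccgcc
m3, chrX:18243375-18243674: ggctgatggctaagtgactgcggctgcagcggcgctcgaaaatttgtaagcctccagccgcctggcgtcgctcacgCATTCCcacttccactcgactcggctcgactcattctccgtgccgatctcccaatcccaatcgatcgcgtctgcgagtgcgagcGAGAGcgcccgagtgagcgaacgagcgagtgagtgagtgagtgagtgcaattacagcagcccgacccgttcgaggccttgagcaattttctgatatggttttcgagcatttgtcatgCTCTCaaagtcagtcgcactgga
m27, chrX:18277179-18277232: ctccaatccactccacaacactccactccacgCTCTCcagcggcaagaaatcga
m43, chrX:18309373-18309672: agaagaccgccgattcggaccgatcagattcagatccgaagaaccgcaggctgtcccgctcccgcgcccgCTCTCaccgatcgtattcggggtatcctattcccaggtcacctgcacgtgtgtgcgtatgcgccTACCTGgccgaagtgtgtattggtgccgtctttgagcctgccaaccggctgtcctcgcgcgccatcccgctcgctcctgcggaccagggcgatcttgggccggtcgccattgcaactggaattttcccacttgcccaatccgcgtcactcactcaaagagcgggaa
Region m3 covers the upd2 start, m27 the upd3 start and m43 the upstream upd1 starts. The other 6 lie in intergenic DNA.

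Regions of the locus fell into constantly and variably listed ones. Of the 44 regions, 18 (40.9%) were listed in all 14 libraries, against 40.8% of all merged regions, 22 were listed in 2 to 13 libraries and 4 in a single library. All 6 regenerating libraries listed 26 of the regions, all 6 control libraries listed 20 and both L3 libraries listed 29. The regions were 77 to 1314 bp wide with a median of 243.5 bp, against 188 bp over all regions, and 34 of the 44 were intergenic. No annotated transposable element lay in the span.

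Peak lists hold no read counts. The number of fragments piled up at a summit and the local background were solved from the fold and the p-value of each peak, on the assumption that the caller used a Poisson model and added 1 to both terms of the fold. The labels do not give these settings. The lowest background in a list then serves as a measure of relative depth, and it ranged from 2.69 to 3.67 fragments in regenerating libraries and from 1.62 to 3.45 fragments in control libraries. Lists held 21779 to 24139 nucleosome-free peaks in regenerating libraries and 19174 to 23654 peaks in control libraries. The 2 shallowest libraries in nucleosome-free fragments, replicate 1 of control 0 h and of control 15 h, each listed 24 regions of the locus. The other 12 libraries listed 29 to 37. In mononucleosome fragments replicate 1 of control 0 h stood at 8.93, above the median of 8.45. There replicate 1 of control 15 h was the lowest, at 5.83. Depth and number did not go together throughout: replicate 1 of control 25 h, at 2.46 fragments, and the deepest library, replicate 2 of regenerating 25 h at 3.67, each listed 33. The part of depth in the counts by group was not tested, and the calculation given below for each gained or lost region is a description.

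**Figure D1:**
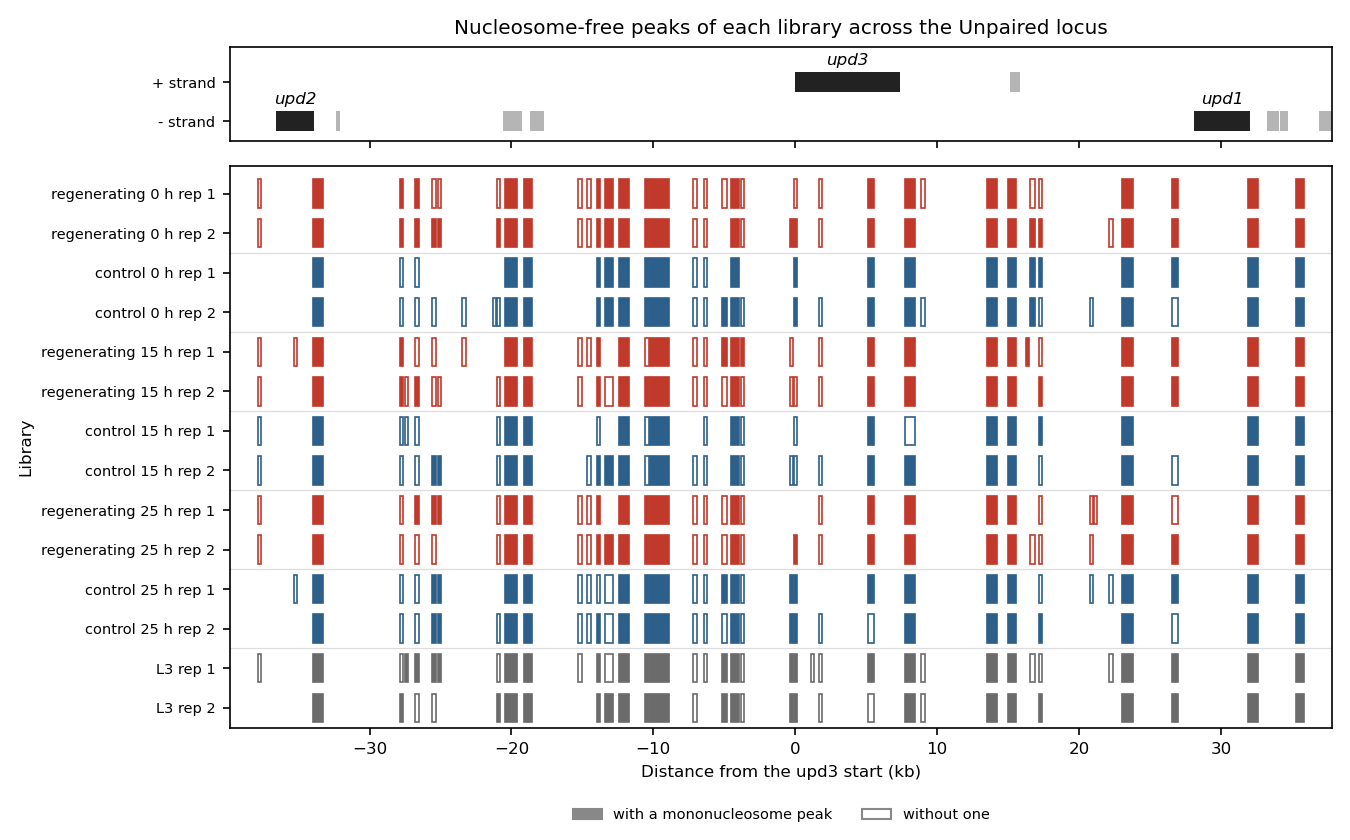
Nucleosome-free regions of the Unpaired locus in each of the 14 libraries (rows), by distance in kb from the upd3 start, with genes by strand above (grey, other genes). Filled boxes overlap a mononucleosome peak of the same library and open boxes do not; boxes narrower than 0.25 kb are drawn at that width. The leftmost region, m1, is listed in 6 regenerating libraries, 2 control libraries and 1 L3 library.

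Wing disc identity was checked at gene starts. All 10 wing disc markers, among them nub, vg, sd and ap, had a peak within 200 bp of a start in all 14 libraries, and Ubx, which marks the haltere disc and was on that list, did so too. Among 5 hemocyte markers Hml, NimC1, eater and He had a peak in no library, and srp had one in 6 regenerating, 5 control and 1 L3 libraries. The 3 fat body markers Fbp1, Lsp2 and Yp1 had none. Of 4 tracheal markers trh, vvl and kni were open in all 14 libraries, and btl was listed in 12 at a median percentile of 42.0. Of 4 markers of disc myoblasts 1 was open in all 14 libraries and none was absent throughout. Among them zfh1, a myoblast factor, was listed in 6 regenerating, 3 control and 1 L3 libraries, and its part in the results below was not tested. In these bulk samples a change in the number of open cells and a change in each cell cannot be told apart.

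The starts of the 3 genes differed in how open they were. The fold of each peak over the caller's background is the authors' own value, and it is given here as a percentile within its own list, where 100 is the strongest peak. Lists differ in length, so percentiles of different libraries show no change by themselves.

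The upd2 start region m3 (chrX:18243281-18243921) was listed in every library. Its fold percentile was 88.9 and 96.3 in regenerating discs at 0 h, against 96.9 and 88.8 in control discs. The values at 15 h were 95.7 and 96.4 in regenerating discs, against 95.8 and 90.7 in control discs. The values at 25 h were 97.4 and 96.2 in regenerating discs, against 90.7 and 84.2 in control discs. The groups overlapped at 0 and 15 h and did not overlap at 25 h. In L3 discs the percentile was 87.3 and 83.5.

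The upd1 start region m43 (chrX:18309109-18309813) was also listed in every library, and it holds the annotated upd1 starts at 18309129 and 18309291. The other annotated start, at 18308259, lay 850 bp from it with no region closer. The fold percentile of m43 was 84.0 and 72.9 in regenerating discs at 0 h, against 74.5 and 81.1 in control discs. Regenerating discs at 15 h gave 80.8 and 87.2, against 75.3 and 81.2 in control discs. Regenerating discs at 25 h gave 82.5 and 86.8, against 84.3 and 82.6 in control discs. Regenerating and control values overlapped at all 3 times, and the L3 values of 81.7 and 76.5 lay in the same range. Region m44 (chrX:18312493-18313054), 3202 bp upstream of upd1, was the other constantly listed region among the 3 with the highest median percentile, at 84.5 with a range of 78.5 to 90.1. Its mononucleosome peak ranked higher still, at a median of 98.9 within the mononucleosome lists.

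The upd3 start region m27 (chrX:18277179-18277297) was weaker and less regular. It was listed in 4 of 6 regenerating, 6 of 6 control and 2 of 2 L3 libraries, and was missing from replicate 1 of regenerating 15 h and of regenerating 25 h. Where listed, its fold percentile was 30.8 and 14.1 in regenerating discs at 0 h, against 19.0 and 34.0 in control discs. The value at 15 h was 20.8 in the 1 regenerating library that listed it, against 41.7 and 18.0 in control discs. The value at 25 h was 25.5 in the 1 regenerating library, against 8.45 and 40.0 in control discs. Regenerating values lay within the range of the control values at each of these times except for the 14.1 at 0 h, and L3 discs gave 27.4 and 28.5.

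The order of the 3 starts depended on the measure. By fold percentile upd2 stood above upd1 in 14 of 14 libraries. By the number of fragments at the summit, which was 47 to 117 for upd2 and 41 to 115 for upd1, upd1 stood above upd2 in 11 of 14 libraries, so these neighbours in the order have no fixed rank. Both stood above upd3, whose summits held 16 to 41 fragments, by either measure in all 12 libraries that listed the upd3 start. The local background was 1.02 times the genome background at the upd2 start, 2.16 times at the upd1 start and 1.91 times at the upd3 start, as medians over libraries.

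**Figure D2:**
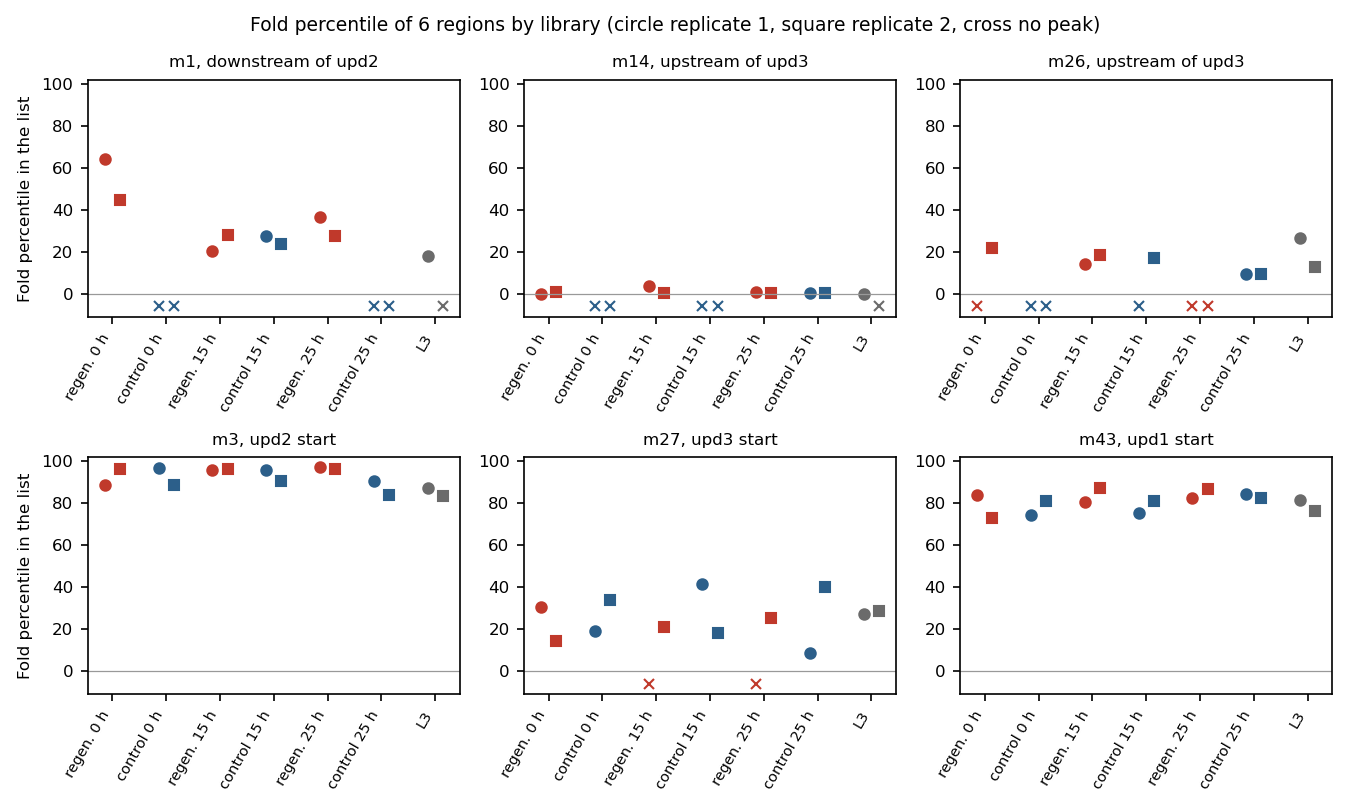
Fold percentile within each library's own list (y axis) for 6 regions, by group (x axis); circles are replicate 1, squares replicate 2 and crosses mark libraries without a peak. Region m1 is absent from both control libraries at 0 h and at 25 h and listed at 20.4 to 64.3 in the 6 regenerating libraries, and the upd2 and upd1 starts are listed in every library.

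A region was called gained at a time if both regenerating libraries and neither control library of that time listed it, and lost if the reverse held. This is a description with no p-value, since 2 against 2 libraries cannot reach a two-sided p below 0.333. At 0 h 4 of the 34 regions listed in at least 2 of the 4 libraries were gained (11.8%), where the same rule called 5.41% of regions across the genome, and 0 of 34 were lost, against 0.834% across the genome. At 15 h 2 of 34 were gained (5.88%), against 3.19%, and 0 were lost, against 2.54%. At 25 h 1 of 34 was gained (2.94%), against 5.27%, and 1 was lost (2.94%), against 1.33%. No difference between the locus and the genome was tested.

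Over the 3 times together, presence was tested by an exact two-sided permutation of the labels within each time, with Benjamini-Hochberg adjustment over 18797 regions. The 216 label orders allow no p below 0.00926. None of the 24 regions of the locus that could be tested passed, with a smallest unadjusted p of 0.0556 and an adjusted p of 1. Across the genome 0 regions passed (0%) after adjustment and 241 (1.28%) had an unadjusted p under 0.05, of which 0 lay in the locus. With that floor over 18797 regions and so few low p-values, no region could pass the adjustment. The adjusted result therefore says nothing about the locus. The smallest p in the locus was shared by m1 and m14, each listed in 6 of 6 regenerating and 2 of 6 control libraries. With lists of equal length that excess of 4 regenerating libraries became 2 for m1 and 1 for m14.

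Region m1 (chrX:18239407-18239581) was the region gained at 0 h and again at 25 h. It lies 3703 bp downstream of the upd2 start, beyond the 3′ end of the gene. Its fold percentile was 64.3 and 44.9 in regenerating discs at 0 h, and it was listed in neither control library. At 15 h it was 20.4 and 28.1 in regenerating discs, against 27.6 and 23.6 in control discs, so both groups listed it at similar rank. At 25 h it was 36.6 and 27.8 in regenerating discs, and again neither control library listed it. Replicate 1 of L3 listed it at 18.0 and replicate 2 did not.

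The summit of m1 held 32 and 32 fragments in regenerating discs at 0 h, 15 and 18 fragments at 15 h, and 20 and 20 fragments at 25 h. Both control libraries at 15 h held 15 and 18 fragments, and replicate 1 of L3 held 16. With that fold, the shallower control libraries at 0 h would have held 16 and 24 fragments, with −log10 p of 11.7 and 15.1, where their lists reach down to 3.52 and 3.45. At 25 h the same calculation gave −log10 p of 7.24 and 8.43 in control libraries whose lists reach down to 3.50 and 3.49. Both calculations assume the lower fold of the 2 regenerating libraries, the same libraries through which m1 was called gained. They give expected values without a spread, so the part of depth in the gain was not tested. Summits of m1 lay within 55 bp of each other in the 9 libraries that listed it, and none of the 14 libraries had a mononucleosome peak there. Its printed sequence holds 1 GAGAG match.

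Other regions of the genome shared the presence pattern of m1. The 33226 regions showed 4692 distinct patterns over the 14 libraries, 6 regions elsewhere had exactly that of m1, and 72 differed from it in at most 1 library. The one with the highest median fold percentile lay 1457 bp from a start of IA-2, which encodes a phosphatase-like protein of secretory vesicles, and another overlapped a start of PolA1, the catalytic subunit of DNA polymerase alpha. For m14 there were 4 such regions, the first of them 705 bp from a start of CkIIbeta, the regulatory subunit of casein kinase 2. None of the other gained or lost regions, m8, m15, m23 and m26, had a region of identical pattern.

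The remaining calls had lower ranks. Region m14 (chrX:18261968-18262144), 15089 bp upstream of upd3, was gained at 0 and at 15 h. Its fold percentile was 0.114 and 0.613 in regenerating discs at 0 h and 3.75 and 0.376 at 15 h, with no control peak at either time. At 25 h it was 0.784 and 0.207 in regenerating discs, against 0.432 and 0.246 in control discs. These are among the weakest peaks of each list by fold, although their summits held 26 to 50 fragments, against 15 to 32 for m1. Replicate 1 of L3 listed m14 at 0.096 and replicate 2 did not. Region m15 (chrX:18262598-18262834), 14399 bp upstream of upd3, was gained at 0 h with 0.372 and 1.33 in regenerating discs and no control peak. Its value at 15 h was 0.0138 in 1 regenerating library, against 6.74 in 1 control library, and at 25 h at 6.35 and 0.491 in regenerating discs, against 13.4 and 8.52 in control discs.

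Region m8 (chrX:18252040-18252280), 8756 bp upstream of upd2, was gained at 0 h with percentiles of 6.67 and 11.8 in regenerating discs. The value at 15 h was 8.17 in 1 regenerating library, against 10.2 in 1 control library, and at 25 h at 29.9 in 1 regenerating library, against 46.8 and 5.35 in control discs. Replicate 1 of L3 listed it at 30.9. Region m23 (chrX:18272087-18272422), 4811 bp upstream of upd3, was gained at 15 h with 1.95 and 2.07 in regenerating discs. At 0 h it stood at 3.37 in 1 regenerating library, against 7.70 in 1 control library, and at 25 h at 1.14 and 1.20 in regenerating discs, against 1.73 and 1.61 in control discs. None of these 4 regions separated the arms at every time.

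The 1 region lost with regeneration was m26 (chrX:18276903-18277049), which ends 184 bp upstream of the upd3 start. At 25 h it was listed in neither regenerating library, against percentiles of 9.67 and 9.43 in control discs. At 15 h it stood at 14.2 and 18.6 in regenerating discs, against 17.1 in 1 control library, and at 0 h at 22.0 in 1 regenerating library and in no control library. Both L3 libraries listed it, at 26.4 and 12.7. Over the 3 times regenerating and control discs each listed it in 3 of 6 libraries. Its sequence starts with a cluster of GAGAG matches on both strands, which begin at bases 18, 20, 26 and 36 of the printed run.

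The same depth calculation was made for every call. Scaled to the genome background of the library that lacks the peak, m1, m8 and m26 would have reached the list, while m14 and m15 at 0 h and m14 and m23 at 15 h would have missed it in at least 1 control library. Region m8 would barely have reached it in replicate 1 of control 0 h. It was expected there at −log10 p of 3.55, with the list reaching down to 3.52. Scaled to the local background, which is high at m14, m15 and m23, all called regions would have reached the list. In control discs at 15 h, for example, m14 was expected at −log10 p of 2.06 and 2.53 by the first calculation and of 4.56 and 5.94 by the second, with the lists reaching down to 3.51 and 3.42. With every list cut to its 19174 strongest peaks by q-value, the gain of m1 at 0 h was the only one of these calls that remained, and its gain at 25 h and the loss of m26 were no longer called. Under that setting m26 was instead called gained at 15 h. With peaks of −log10 q of at least 5, m1 and m15 at 0 h, m23 at 15 h, m1 at 25 h and the loss of m26 remained, and m8 and m14 were no longer called.

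**Figure D3:**
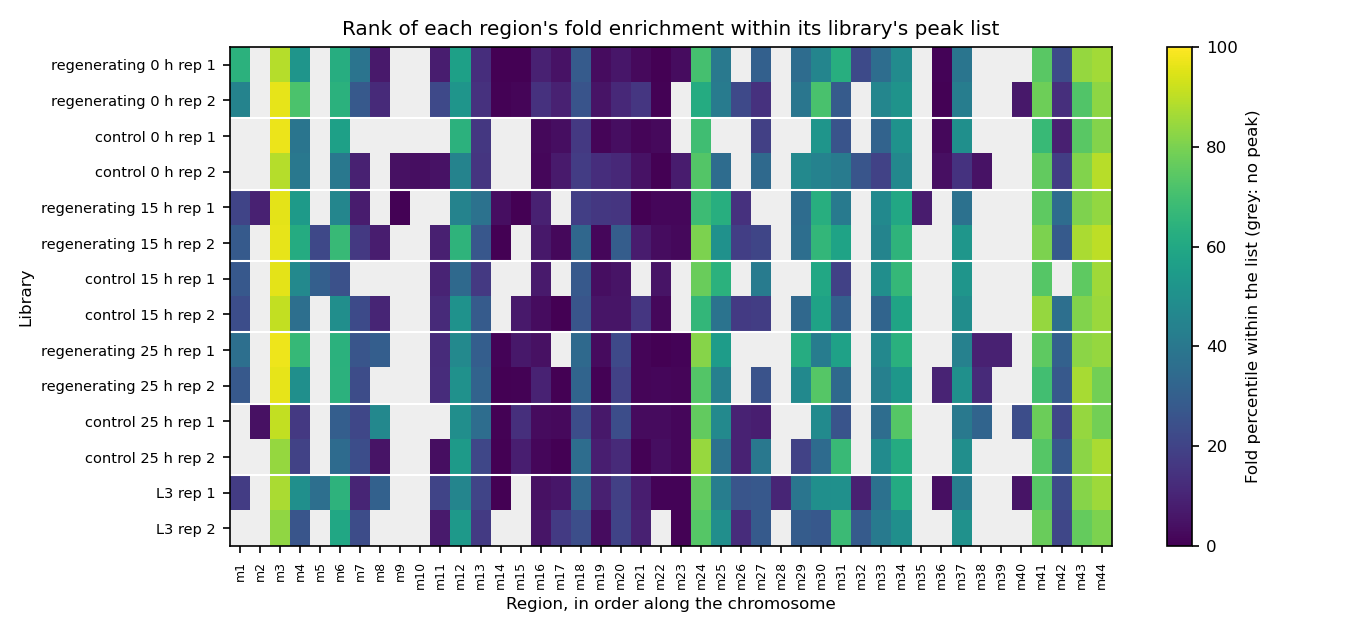
Fold percentile within each library's own list (colour, 0 to 100) for the 44 regions in order along the chromosome (columns) and the 14 libraries (rows); grey marks regions without a peak. The upd2 start m3, the upd1 start m43 and m44 are bright in every row, and m14 to m23 upstream of upd3 are dark in every row that lists them, at median percentiles of 0.376 to 27.1.

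The weakly ranked block upstream of upd3 was a stretch of raised local background, as solved from fold and p. Whether this background comes from the clustered peaks themselves or from signal between them was not tested. The 10 neighbouring regions m14 to m23 span 10.5 kb (chrX:18261968-18272422) and had a median local background of 4.07 to 6.17 times the genome background. The median over all regions of the genome was 1.22 and the 99th percentile was 6.65. A ratio of at least 4 was reached by 1982 regions (5.97%), which formed 340 runs of neighbouring regions. This run ranked 82nd of them by its highest ratio and 46th by its number of regions, and 53 were longer. Fold is measured against local background. By fold, 8 of the 10 regions had a median percentile under 10. By summit fragments, the medians of the 10 stood at the 49.9th to 86.0th percentile. Of the 10 regions 4 were listed in all 14 libraries and 6 had a mononucleosome peak in at least 1 library.

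**Figure D4:**
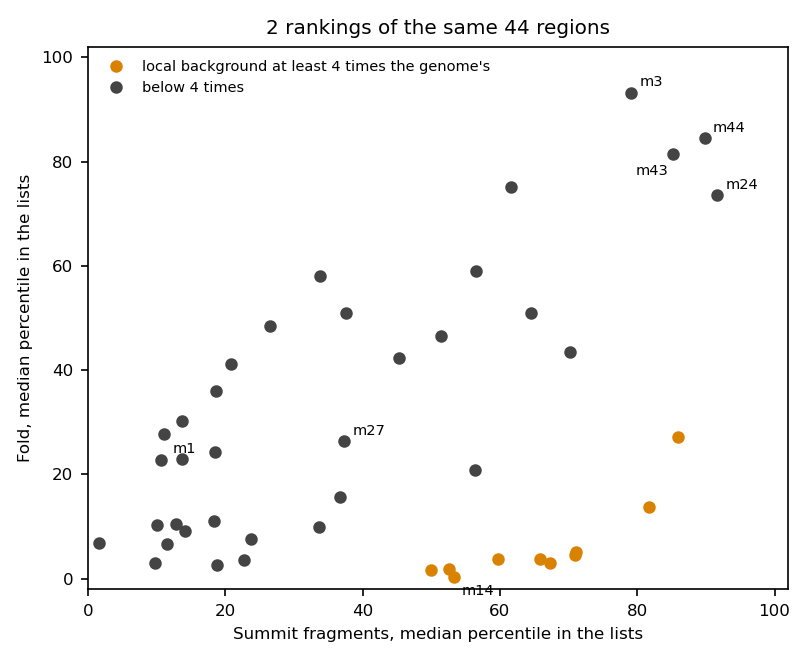
Median fold percentile (y axis) against median percentile of summit fragments (x axis) of the 44 regions, each within its own lists. The 10 regions whose local background is at least 4 times the genome background lie at the lower right, at 0.376 to 27.1 on the fold scale and at 49.9 to 86.0 on the fragment scale.

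Next to this stretch, m24 (chrX:18272724-18273240), 3993 bp upstream of upd3, was high by either measure. It was listed in all 14 libraries at a median fold percentile of 73.6, with 51 to 137 summit fragments. Its percentile was 70.5 and 61.4 in regenerating discs at 0 h, against 69.4 and 73.4 in control discs, and 68.7 and 80.2 in regenerating discs at 15 h, against 77.2 and 66.4 in control discs. At 25 h regenerating discs gave 81.9 and 73.4, against 75.9 and 84.6 in control discs. The groups overlapped at all 3 times in these full lists, and L3 discs gave 76.0 and 73.7. A mononucleosome peak was present there in every library.

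The 4 regions of the stretch listed in all libraries, m16, m18, m19 and m20, allow its background to be followed over fixed positions. Their median ratio of local to genome background was 6.84 and 7.62 in regenerating discs at 0 h, against 5.97 and 7.50 in control discs. Regenerating discs stood at 5.52 and 5.37 at 15 h, against 3.96 and 4.72 in control discs. They stood at 5.53 and 5.44 at 25 h, against 5.11 and 5.01 in control discs. The groups overlapped at 0 h and did not at 15 and 25 h, and L3 discs stood at 7.06 and 7.57, near the values of 0 h.

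Libraries also differ in how far such backgrounds rise anywhere. The 4 regions were therefore divided by the median of the 1185 other regions with a ratio of at least 4 that were listed in all 14 libraries. The quotient was 1.45 and 1.28 in regenerating discs at 0 h, against 1.17 and 1.35 in control discs. At 15 h it was 1.19 and 1.27 in regenerating discs, against 1.05 and 0.963 in control discs, and at 25 h 1.33 and 1.12 in regenerating discs, against 0.971 and 0.934 in control discs. L3 discs stood at 1.28 and 1.39. At 15 and 25 h the stretch thus stood above the other high regions in both regenerating libraries and at or near their level in control libraries. The median of the other regions differed between arms at 25 h, at 4.16 and 4.85 in regenerating discs, against 5.26 and 5.37 in control discs. Part of the gap in the quotient at 25 h therefore comes from those other regions. At 15 h their median overlapped, at 4.63 and 4.23 in regenerating discs, against 3.78 and 4.90 in control discs.

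Region by region, 4 of the 4 were higher in both regenerating than in both control libraries at 15 h, where 8.66% of the 1189 regions were, and 4 of 4 at 25 h, where 19.6% were. At 0 h 0 of 4 were, against 10.3%. Lower without overlap were 0 of the 4 at each time, against 271 of the 1189 at 0 h, 199 at 15 h and 464 at 25 h. Both times together held for 4 of 4 and for 3.62% of the 1189. The 4 lie within a few kb and share their background, so they count as 1 observation, and this comparison was chosen after the values were seen and carries no test.

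**Figure D5:**
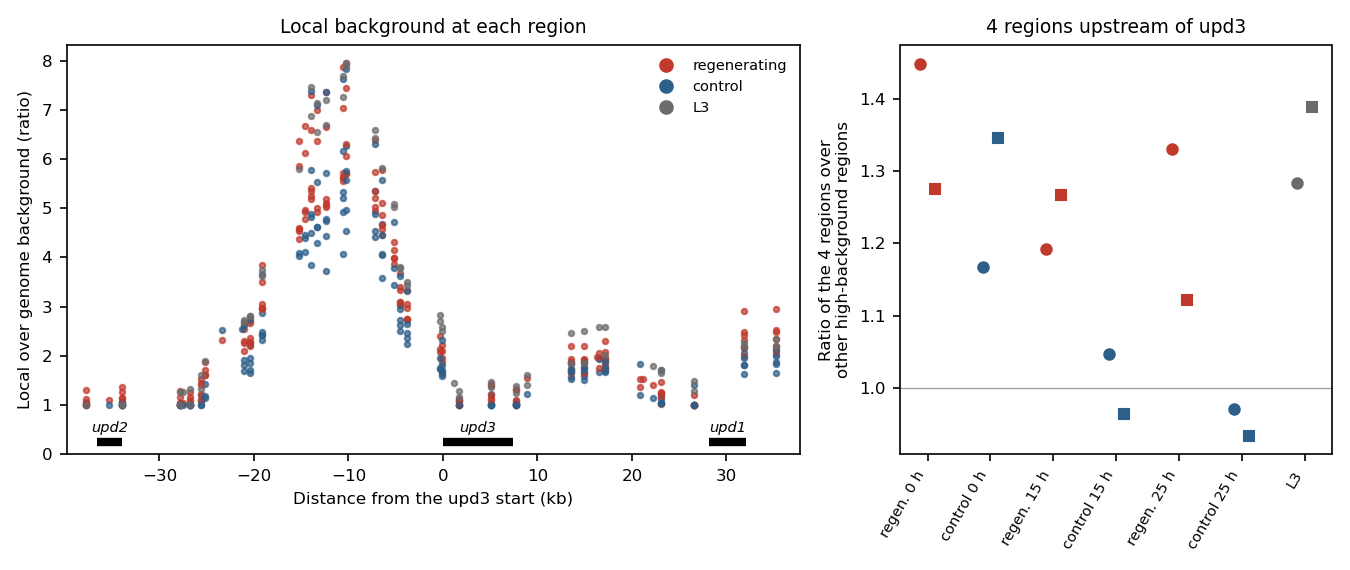
Left, ratio of local to genome background at each listed region and library (y axis) by distance in kb from the upd3 start, coloured by arm, with the 3 genes as bars. Right, the median ratio of m16, m18, m19 and m20 over that of 1185 other high-background regions (y axis), by group; circles are replicate 1 and squares replicate 2. At 15 and 25 h the regenerating libraries lie at 1.12 to 1.33 and the control libraries at 0.934 to 1.05.

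Within upd3 itself, the intronic region m29 (chrX:18278877-18279128) was listed in 6 of 6 regenerating, 3 of 6 control and 2 of 2 L3 libraries. Its fold percentile was 35.2 and 39.1 in regenerating discs at 0 h, against 47.1 in 1 control library. At 15 h it was 35.4 and 36.1 in regenerating discs, against 33.7 in 1 control library, and at 25 h 61.9 and 47.5, against 19.5 in 1 control library. The control library that listed it was replicate 2 each time. Replicate 1 of the control discs was the shallower library each time, at 1.62, 2.27 and 2.46 fragments of genome background, against 2.83, 3.45 and 3.01 in replicate 2, and the part of depth in this difference was not tested. Of the other intronic regions of upd3, m30 was listed in all 14 libraries at a median percentile of 50.9 and m28 in 1 library.

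Peak names inside the mononucleosome lists carry the word for nucleosome-free, and the lists were taken for what their titles say. Mononucleosome peaks overlapped 31 of the 44 regions in at least 1 library and 11 in all 14, and those 11 were all among the 18 constantly listed regions. The 13 regions without a mononucleosome peak were all among the other 26. Merged on their own, the mononucleosome peaks of the span formed 24 regions, of which 11 (45.8%) were listed in all 14 libraries, against 38.0% across the genome. At 0 h 2 of 21 were gained, against 1.83% across the genome, and 0 were lost, against 2.23%. At 15 h 2 of 18 were gained, against 3.84%, and 1 was lost, against 1.58%. At 25 h 0 of 18 were gained, against 3.56%, and 0 lost, against 3.60%.

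The mononucleosome region gained at 0 and at 15 h overlaps m4 and m5, the first regions upstream of upd2. It was listed in 4 regenerating, 1 control and 2 L3 libraries. At 25 h it was listed in neither regenerating library and in replicate 1 of the control discs. Its neighbour over m6, gained at 0 h, was listed in 4 regenerating, 0 control and 1 L3 libraries. The other 2 calls at 15 h were a loss over m7 and m8 and a gain over m42. All these called regions ranked low in the mononucleosome lists. Their median fold percentiles were 19.3 over m4 and m5, 14.7 over m6, 10.9 over m7 and m8, and 10.1 over m42. Replicate 1 of control 15 h was the shallowest library in mononucleosome fragments, and the part of depth in these calls was not tested. The mononucleosome region that covers m26 and the upd3 start was listed in 3 regenerating, 4 control and 2 L3 libraries, and in none of the 4 libraries at 15 h.

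Region m4 (chrX:18249368-18249583), 6084 bp upstream of upd2, stood out among the regions listed everywhere. To compare libraries on 1 list length, fold was ranked among the 13545 regions present in all 14 libraries. The percentile of m4 in this set was 30.2 and 51.6 in regenerating discs at 0 h, against 22.8 and 19.9 in control discs. At 15 h it was 33.0 and 37.2 in regenerating discs, against 27.6 and 13.1 in control discs. At 25 h it was 46.4 and 25.3 in regenerating discs, against 5.04 and 4.68 in control discs. Regenerating discs were higher without overlap at all 3 times, and L3 discs stood at 23.5 and 9.34.

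Across the genome 1.49% of the 13545 regions were higher without overlap at all 3 times, and 1 of the 18 regions of the locus was. Lower at all 3 times were 1.63% of regions and 0 of the 18. At single times 2 of 18 were higher at 0 h, against 15.0% across the genome, 5 of 18 at 15 h, against 20.3%, and 3 of 18 at 25 h, against 19.0%. Lower without overlap were 3 of 18 at 0 h, against 18.9%, 0 of 18 at 15 h, against 17.1%, and 3 of 18 at 25 h, against 23.1%. The lower regions were m13, m24 and m34 at 0 h and m12, m19 and m41 at 25 h. The higher ones were m4 and m16 at 0 h and m4, m20, m30, m31 and m43 at 15 h. At 25 h they were m3, m4 and m6. The locus as a whole did not stand apart by these counts, and m4 was picked out after its values were seen. Its neighbour m6 (chrX:18250460-18250705) was higher without overlap at 25 h, with 42.0 and 42.5 in regenerating discs, against 12.6 and 13.4 in control discs, and overlapped at 0 and 15 h. The upd2 start m3 was higher without overlap at 25 h in the same ranking, with 95.6 and 93.6 in regenerating discs, against 85.9 and 75.0 in control discs. The upd1 start m43, which overlapped in the full lists, did not overlap at 15 h in this ranking, with 69.6 and 77.6 in regenerating discs, against 61.9 and 67.8 in control discs. Region m24 also overlapped in the full lists. In this ranking it was lower at 0 h, with 54.0 and 37.0 in regenerating discs, against 57.5 and 58.7 in control discs.

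Motifs were searched in the 200 bp around the strongest summit of each region, on both strands. The STAT site TTCNNNGAA and its form with a spacer of 4 bases were found in 1 of the 44 regions (m37) and in 2 (m27 and m44), against 4.16% and 4.64% of all regions. The match of m27 lies outside the 54 bases of it that are printed. The AP-1 site TGANTCA, the target of Jun and Fos downstream of JNK, was found in 3 (m9, m31 and m36), against 4.41%. GGAATG was found in 5, against 9.68%, CAGGTA in 4, against 5.75%, AACNGGTT, the site of the epithelial factor Grainyhead, in 2, against 7.32%, and GAGAG in 17, against 32.8%. Of the 6 gained or lost regions 3 held GAGAG and none held any of the other 6 motifs in that window. Median GC content was 54.5% in the locus, 56.0% in the high-background stretch and 47.5% over all regions.

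The rest of the JAK/STAT pathway was read from regions whose nearest start belongs to 1 of 13 genes. These are the receptor gene dome and its negative co-receptor et, the kinase hop, Stat92E, the inhibitors Socs36E, Socs16D, Socs44A, Ptp61F and Su(var)2-10, and the targets or partners ken, chinmo, zfh2 and apt. They had 71 regions, with none for et. Of these, 43 were listed in all 14 libraries, a higher share than the 40.8% of all regions. This difference was not tested. At 0 h 1 of 54 regions was gained (Socs16D), against 5.41% across the genome, and 0 were lost, against 0.834%. At 15 h 0 of 52 were gained, against 3.19%, and 2 were lost, both at Stat92E, which had 8 regions tested, against 2.54%. At 25 h 2 of 52 were gained, 1 at chinmo and 1 at apt, against 5.27%, and 0 were lost, against 1.33%. The 3 regions of Socs36E and the 1 of hop were present in every library.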

How the data were processed

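Wing disc ATAC-seq was given as peak lists, 1 of nucleosome-free and 1 of mononucleosome fragments for each of 14 libraries. STAR 2.4.0j, MACS2 and dm6 are named in the submitters' processing notes; neither these notes nor the labels give fragment limits, peak thresholds or a control track. Each deposited peak carries the authors' fold ratio over background, −log10 p and −log10 q values and a score, which equals 10 times −log10 q rounded down in 99.997% of peaks. Peaks were called per library. Peak names inside the mononucleosome lists carry the word for nucleosome-free; the titles of the lists were followed. Replicates are only numbered and may be technical, so p-values measure the spread between these libraries.

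Peaks were merged and analysed in Python 3.11.15 with scipy 1.17.1, pandas 2.3.3 and numpy 2.4.6, and drawn with matplotlib 3.10.9. Summit fragments and local background were solved from the authors' deposited fold and −log10 p under a Poisson model with 1 added to both terms of the fold, with whole-number summits within 0.001, and cover counting error only. On data simulated under that same model the solver recovered 100% of 2000 peaks, which checks the inversion and not the assumed settings. Annotation was BDGP 6.54 (Ensembl 115); sequences came from the RefSeq copy of Release 6, whose arm lengths hold every peak. The regions described in full are those gained or lost, those at upd starts and the 3 constant regions of highest median percentile; m4, m6, m24, m29 and the high-background stretch were added after their values were seen. The members, lists and tests were chosen with earlier results of these data known. Alternatives were a −log10 q of at least 5, lists cut to 19174 peaks, peaks covering at least 50% of a region, 2 depth filters, a replicate block and leaving out each replicate.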

Additional observations from a re-analysis of the deposited data

How the results depend on the processing

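Peak lists give no counts, and the part of depth in the listing of weak regions was not tested. Regions gained at 0 h numbered 4 and fell to 2 under the filter on genome depth. Regions gained at 15 h numbered 2 (genome 732), with 1 at −log10 q of at least 5 (643), 1 with equal list lengths (599), 0 when peaks had to cover 50% of the region (927) and 0 under the filter on genome depth. Regions gained at 25 h numbered 1 (1172), with 2 at −log10 q of at least 5 (1133), 3 with equal list lengths (647) and 2 with coverage of 50% (1423). With coverage of 50%, 10 of the 44 regions were in all 14 libraries in place of 18, and 9739 of all regions in place of 13545. Equal list lengths kept 1 of the 4 calls at 0 h, m1, and none of those at 15 or 25 h. They moved the excess of regenerating over control libraries to 2 for m1 (4 before), 1 for m14 (4), 0 for m23 (2), 2 for m26 (0) and, reversed, to −2 for m15 (2). The local depth filter, chosen after seeing the data, removed no call. The causes were not tested.

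Leaving out 1 library gave 4 to 8 regions gained and 0 to 3 lost at 0 h, 2 to 7 gained and 0 to 2 lost at 15 h, 2 to 3 gained and 1 to 3 lost at 25 h, and 18 to 20 listed in all. By construction these counts can only stay or grow, so they say nothing about stability. Without control replicate 2 the genome grew too, to 3203 gained at 0 h (8 in the locus, 1200 before) and to 2007 at 15 h (7, 732 before), and without control replicate 1 to 1356 lost at 0 h (3, 185 before). The presence test gave 0 in the locus throughout, but the floor on p left no region able to pass the adjustment in any setting. Unscaled, 4 of the 4 high-background regions were higher at 15 h (41 of 1189 in all) and 3 at 25 h (31). With replicate numbers as a block, 0 regions of the locus passed and 69 regions of the genome had an unadjusted p under 0.05, against 241 without it. Differences in presence between replicates 1 and 2 correlated at −0.0153, 0.0395 and −0.0024 between arms. Replicate 1 nonetheless had the lower genome background in both arms at each time. At 15 h, for example, it stood at 2.69 against 3.45 fragments in regenerating discs and 2.27 against 3.45 in control discs. Whether the numbers pair libraries was thus not settled.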
